A study of Saccharomyces cerevisiae with 32 samples.

Results

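The 10 genes described here divide budding yeast into its 2 haploid mating types, and they were chosen by name from the table of read counts, which holds 7036 genes. *MFALPHA1*, *MFALPHA2*, *STE3* and *SAG1* are the alpha-specific genes of the set, and *MFA1*, *MFA2*, *STE2*, *BAR1*, *STE6* and *ASG7* are the a-specific genes. They were read in 32 libraries, RNA-Seq and Ribo-Seq of the same 16 cultures, with 4 cultures each of *tma46Δ*, *eif2aΔ*, *stm1Δ* and *wt*. The *wt* strain was BY4742 (*MATα his3Δ1 leu2Δ0 lys2Δ0 ura3Δ0*), a laboratory strain of the alpha mating type, and the deletion strains, each lacking a single gene that takes part in translation (*TMA46*, *YGR054W* or *STM1*), came from the deletion collection made in this background. Each genotype was thus 1 strain, and replicates were separate cultures of it by the labels. The cells were in exponential growth, and the study's methods give YPD as the medium, whereas the labels name YPD or SD. RNA-Seq measured mRNA, and Ribo-Seq counted the mRNA fragments that ribosomes protect, so that a gene has a level in each assay, given here in CPM, the counts scaled to the same total in every library.

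A yeast cell of the alpha mating type makes α-factor, a peptide pheromone, and carries the receptor for a-factor, the lipid-modified pheromone of the other type. Cells of type a do the reverse. The α2 protein of alpha cells and the general factor Mcm1 together bind an operator upstream of the a-specific genes and repress them, while α1 and Mcm1 activate the alpha-specific genes. The comparison of the 2 groups within each library therefore reads the mating type of the culture, and the comparison of mutants with *wt* asks whether loss of Tma46, eIF2A or Stm1 altered it.

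The α-factor peptide is encoded in tandem in both pheromone genes, and the repeats are shown because they set which reads of the genes can be placed. *MFALPHA1* (YPL187W, chrXVI:193648-194145, + strand, 498 bases, 1 coding exon) holds 4 copies of the 13-codon stretch and *MFALPHA2* (YGL089C, chrVII:344791-345153, - strand, 363 bases, 1 coding exon) holds 2. The sequences are RefSeq's for build R64, in the sense orientation, with capitals at bases that differ from the first copy of *MFALPHA1*.
MFALPHA1 copy 1 (chrXVI:193915-193953, + strand): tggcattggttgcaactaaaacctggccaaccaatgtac
MFALPHA1 copy 2 (chrXVI:193978-194016, + strand): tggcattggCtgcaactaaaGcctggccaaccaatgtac
MFALPHA1 copy 4 (chrXVI:194104-194142, + strand): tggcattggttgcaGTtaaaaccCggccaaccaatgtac
MFALPHA2 copy 1 (chrVII:344857-344895, - strand): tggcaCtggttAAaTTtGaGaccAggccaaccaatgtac
MFALPHA2 copy 2 (chrVII:344794-344832, - strand): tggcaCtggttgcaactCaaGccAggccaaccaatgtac
The third copy of *MFALPHA1* (chrXVI:194041-194079) is identical to the second. All 4 copies in *MFALPHA1* encode the same 13 amino acids, as does the second copy of *MFALPHA2*, whereas the first copy of *MFALPHA2* has 8 different bases and 2 codons that change the amino acid. Of the 28-base windows of *MFALPHA1*, about the length of a footprint, 22.9% occur more than once in the genome, and only uniquely placed reads were counted. None of the windows of the other 9 genes does. The level of *MFALPHA1* may therefore be understated, and whether to the same extent in RNA-Seq, at its own read length, was not tested.

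The promoters were searched for the operator of the a-specific genes. The operator was searched in the 300 bases before each start codon, on both strands, as CC, 6 bases of any kind, GG, any base, AA, any base, T, an optional extra T and ACA. It was found upstream of 6 of 6 a-specific genes and 0 of 4 alpha-specific genes, against 9 of all 6002 nuclear protein-coding genes (0.15%). The 3 further genes are *AGA2*, an a-specific adhesin subunit that is not among the 10 genes, *MSG5*, a phosphatase of the pheromone pathway that is among the further genes listed here, and *CPR8*, which was singled out only by this search. The 30-base windows of the a-specific genes are given on the strand of the gene in build R64 from RefSeq, with the match in capitals, since they carry what the a-specific genes share.
MFA1 (chrIV:1384943-1384972, + strand): gtgtaattaCCCAAAAAGGAAATTTACAtg
MFA2 (chrXIV:352164-352193, + strand): atgtatttaCCTATTCGGGAAATTTACAtg
STE2 (chrVI:82353-82382, + strand): tgtaaatttCCTAATTGGGTAAGTACAtga
BAR1 (chrIX:322079-322108, + strand): atgtaattaCCGTAAAAGGAAATTACAtgg
STE6 (chrXI:46477-46506, - strand): atgtaattaCCTAATAGGGAAATTTACAcg
ASG7 (chrX:101905-101934, - strand): acgtaattaCCGCATCGGGAAATTTACAtg
The matches begin 146 bases (*ASG7*) to 254 bases (*BAR1*) before the start codon. All but that of *ASG7* match on the opposite strand too. A match describes the letters in the window and not a bound site. The pattern was that of the operator of a-specific genes, so their matches are no independent result. A count of 0 among 4 alpha-specific genes is near the share of all genes.

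The libraries held 4215500 to 6717295 counts for RNA-Seq and 1457024 to 4122370 for Ribo-Seq. The deleted gene was read at no more than 2 counts in RNA-Seq and 23 in Ribo-Seq in any library of its own deletion strain, at most 0.720% of the *wt* level. The labels place the cultures in 7 batches. The 4 replicates of *tma46Δ* came from batches 1, 2, 3 and 5, those of *eif2aΔ* from batches 3, 4, 5 and 6, and those of *wt* from batches 1, 2, 3 and 4. In *stm1Δ*, replicate 1 came from batch 6 and the other 3 from batch 7, so that no *stm1Δ* culture shared a batch with *wt*. Levels of the alpha-specific genes, described next, were by mean rank lowest in the cultures of batches 4, 5 and 7. Ranked upward over the 4 genes and both assays, these cultures had mean ranks of 1.4 to 7.1. The cultures of batches 1, 2, 3 and 6 had mean ranks of 8 to 15.75. The cause was not tested.

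The alpha-specific genes were read in every library, and the a-specific genes were low in all 4 strains. Summed over the 4 alpha-specific genes, the level was 610 to 1538 CPM in RNA-Seq (median 1247) and 566 to 1543 CPM in Ribo-Seq (median 1132). Summed over the 6 a-specific genes it was 22.2 to 41.3 CPM in RNA-Seq (median 30.9) and 1.62 to 6.35 CPM in Ribo-Seq (median 3.92). Per kilobase of coding sequence, the alpha-specific sum exceeded the a-specific sum in each of the 32 libraries, 29.8- to 107-fold in RNA-Seq (median 70.5) and 258- to 1392-fold in Ribo-Seq (median 526). Taken gene by gene and per kilobase, the lowest alpha-specific gene stood above the highest a-specific gene in 14 of 16 RNA-Seq libraries and in 16 of 16 Ribo-Seq libraries. The exceptions in RNA-Seq were the *stm1Δ* replicates 3 and 4, where *MFALPHA2* was lowest.

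**Figure D1:**
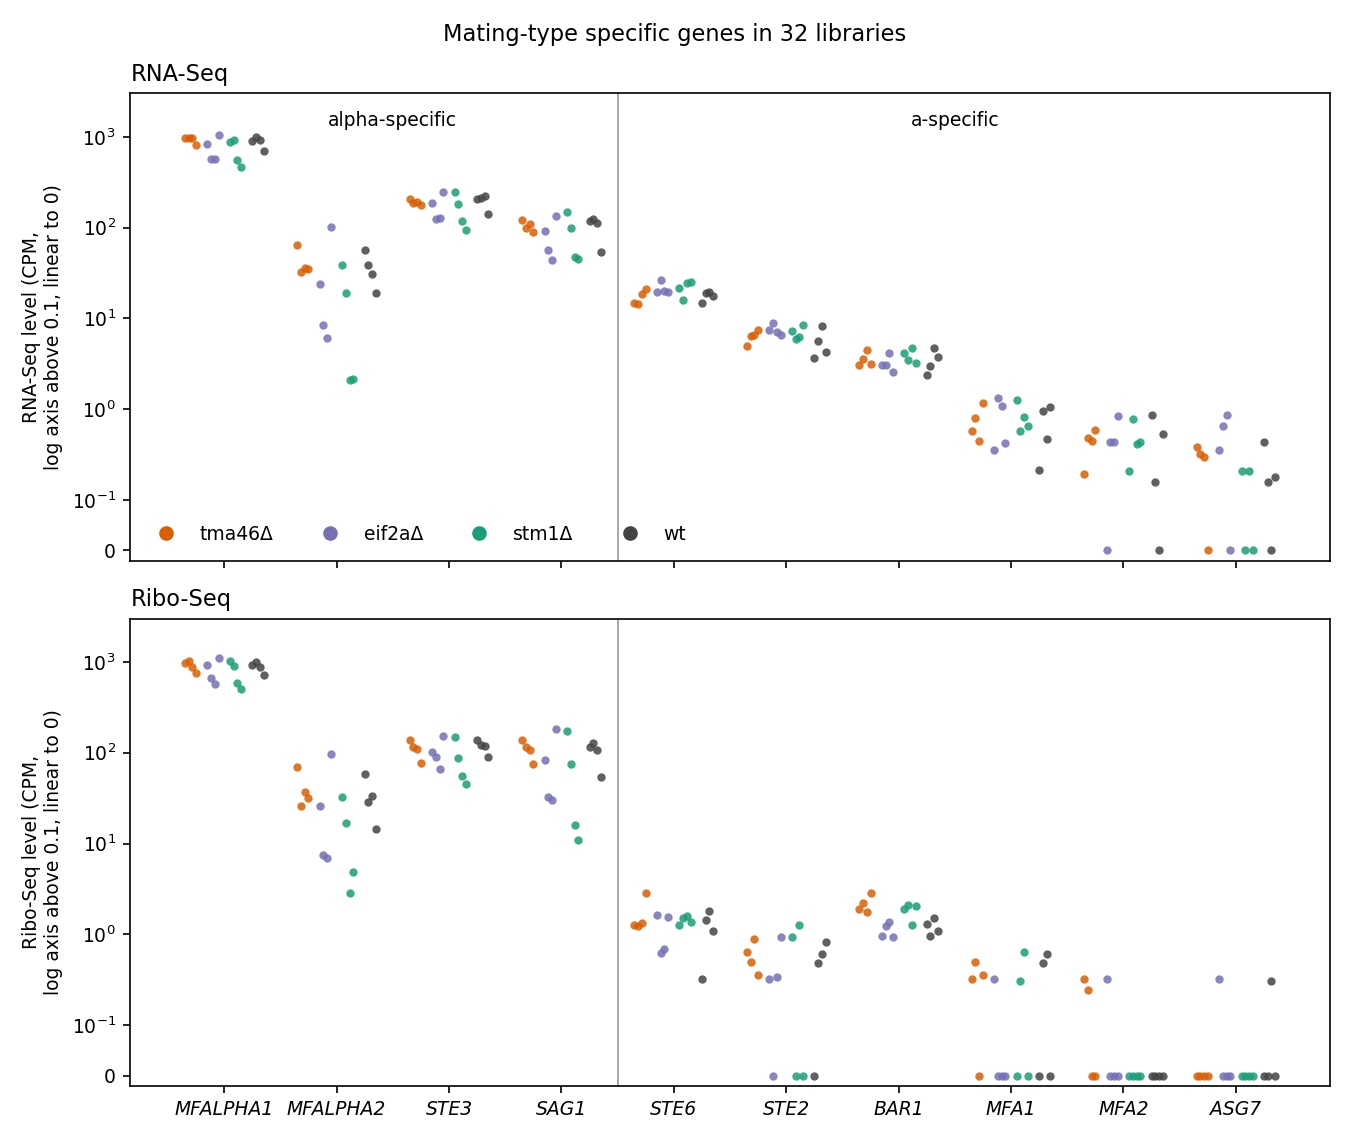
Level of the 10 genes in each library, in CPM on an axis that is logarithmic above 0.1 and linear down to 0, with RNA-Seq above and Ribo-Seq below; each point is 1 library of *tma46Δ*, *eif2aΔ*, *stm1Δ* or *wt*. *MFALPHA1* lies between 470 and 1113 CPM in both assays, *MFALPHA2* spreads from 2.07 to 102 CPM in RNA-Seq, and in Ribo-Seq no a-specific gene exceeds 2.82 CPM.

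*MFALPHA1*, which encodes most of the α-factor of the cell, had the highest level of the 10 genes in every library, also per kilobase. Its RNA-Seq level was 959, 960.2, 977 and 816 CPM in *tma46Δ*, 842, 575, 570.1 and 1053 CPM in *eif2aΔ*, 870.3, 912, 562 and 469.9 CPM in *stm1Δ* and 902, 1003, 925 and 700.5 CPM in *wt* (replicates 1 to 4 of each strain). In Ribo-Seq it had 971, 1018, 872 and 759 CPM in *tma46Δ*, 925, 663, 572 and 1113 CPM in *eif2aΔ*, 1020.0, 910.3, 589.8 and 505 CPM in *stm1Δ* and 914, 1006, 878 and 710.5 CPM in *wt*. The strains overlapped in both assays, and the 16 cultures spanned 2.24-fold in RNA-Seq and 2.20-fold in Ribo-Seq. The low cultures were *stm1Δ* replicates 3 and 4, *eif2aΔ* replicates 2 and 3 and, less so, *wt* replicate 4.

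*MFALPHA2*, the minor α-factor gene, had a median of 31.7 CPM in RNA-Seq and had the widest spread in log2 CPM of the 4 alpha-specific genes. Its RNA-Seq level was 64.7, 32.8, 36.03 and 35.4 CPM in *tma46Δ*, 23.9, 8.56, 6.08 and 102 CPM in *eif2aΔ*, 38.5, 18.9, 2.07 and 2.16 CPM in *stm1Δ* and 56, 38.99, 30.6 and 19.3 CPM in *wt*. In Ribo-Seq it had 69.8, 25.8, 37.1 and 32.1 CPM in *tma46Δ*, 26.2, 7.45, 6.85 and 97.5 CPM in *eif2aΔ*, 32.4, 16.7, 2.85 and 4.80 CPM in *stm1Δ* and 57.8, 28.4, 33.4 and 14.6 CPM in *wt*. The range was 49.2-fold in RNA-Seq and 34.2-fold in Ribo-Seq, and the same 4 cultures of *stm1Δ* and *eif2aΔ* were lowest. The lowest level rests on 10 counts in RNA-Seq (*stm1Δ* replicate 3) and on 9 in Ribo-Seq (the same culture). *eif2aΔ* replicate 4 was the highest culture in both assays.

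*STE3* (YKL178C, chrXI:113215-114627, - strand) encodes the receptor through which alpha cells sense a-factor. Its RNA-Seq level was 205, 188, 192 and 178 CPM in *tma46Δ*, 186, 125, 126 and 247 CPM in *eif2aΔ*, 249, 183, 118 and 93.4 CPM in *stm1Δ* and 207, 211, 225 and 141 CPM in *wt*. In Ribo-Seq it had 137, 114, 111 and 77.2 CPM in *tma46Δ*, 102, 90.6, 66.8 and 152 CPM in *eif2aΔ*, 149, 87.01, 55.8 and 45.3 CPM in *stm1Δ* and 137, 122, 119.8 and 89.1 CPM in *wt*. The *tma46Δ* replicates were close to each other in RNA-Seq, within the range of *wt*, and the other strains spread around both.

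*SAG1* (YJR004C, chrX:442909-444861, - strand) encodes α-agglutinin, the cell wall protein by which alpha cells adhere to their partner. Its RNA-Seq level was 122, 98.4, 109.7 and 89.7 CPM in *tma46Δ*, 92.3, 56.8, 44.1 and 135 CPM in *eif2aΔ*, 148, 100.1, 47.7 and 44.7 CPM in *stm1Δ* and 119.5, 123, 112 and 54.6 CPM in *wt*. In Ribo-Seq it had 138, 115, 108 and 75.5 CPM in *tma46Δ*, 83, 32.9, 29.8 and 181 CPM in *eif2aΔ*, 171, 75.1, 15.8 and 10.98 CPM in *stm1Δ* and 117, 127, 107 and 54.4 CPM in *wt*. The range was 3.35-fold in RNA-Seq and 16.5-fold in Ribo-Seq, and the lowest footprint levels were those of *stm1Δ* replicates 3 and 4.

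Per kilobase, the alpha-specific genes kept a wide order. The median in RNA-Seq was 1780 CPM per kilobase for *MFALPHA1*, 133 for *STE3*, 87.3 for *MFALPHA2* and 50.8 for *SAG1*. *MFALPHA1* did not overlap the others over the 16 libraries, whereas *STE3*, *MFALPHA2* and *SAG1* overlapped, *MFALPHA2* ranging from 5.72 to 281 CPM per kilobase. Among the 4625 genes past the expression filter (10 CPM in at least 4 libraries of each assay), the standard deviation of log2 CPM over the 16 RNA-Seq libraries ranked 6th for *MFALPHA2* (1.55), 44th for *SAG1* (0.60), 152nd for *STE3* (0.41) and 230th for *MFALPHA1* (0.36), beside a median of 0.17 over all genes. In Ribo-Seq the ranks were 13th for *MFALPHA2* (1.37), 17th for *SAG1* (1.19), 120th for *STE3* (0.51) and 364th for *MFALPHA1* (0.34), with a median of 0.19.

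**Figure D2:**
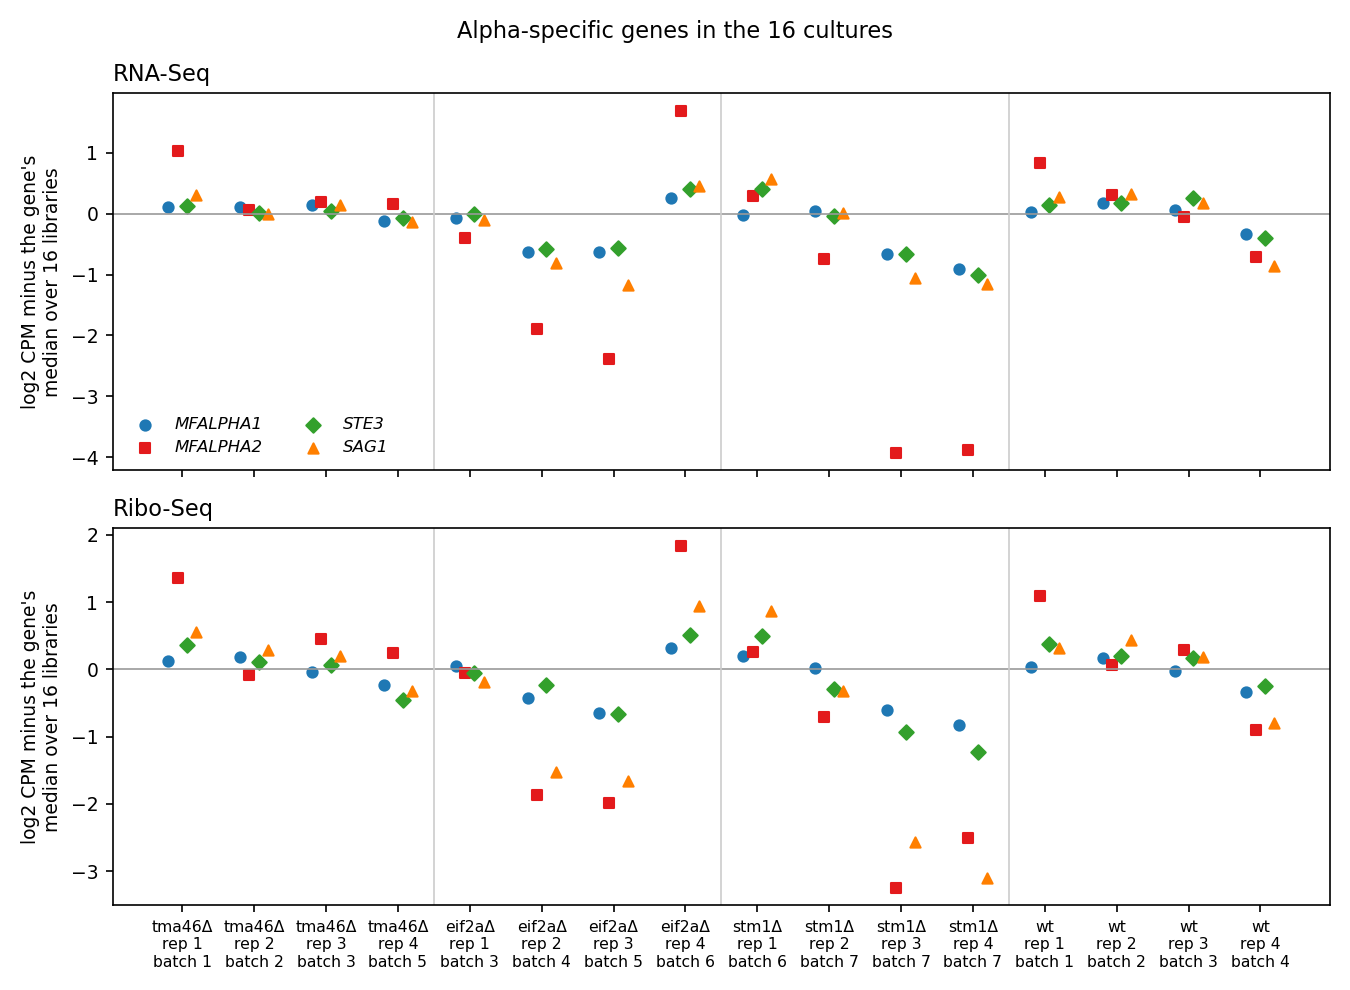
log2 CPM of the 4 alpha-specific genes in each of the 16 cultures, less the median of the gene over the 16 libraries of the assay, with RNA-Seq above and Ribo-Seq below and the batch under each culture. Over the 4 genes, *stm1Δ* replicates 3 and 4 of batch 7 rank lowest and *eif2aΔ* replicate 4 of batch 6 highest, while in RNA-Seq *SAG1* is lowest in *eif2aΔ* replicate 3 and *SAG1* and *STE3* are highest in *stm1Δ* replicate 1.

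The levels of the 4 genes were correlated over the cultures. In RNA-Seq, log2 CPM of the 6 pairs of alpha-specific genes correlated across the 16 libraries with Pearson r 0.90 to 0.96 and Spearman rho 0.81 to 0.95, with adjusted permutation p of at most 2.13e-05 for r and 0.000341 for rho. In Ribo-Seq r was 0.87 to 0.96 and rho 0.71 to 0.95, with adjusted permutation p of at most 5e-05 for r and 0.00272 for rho. Between the assays, the 4 genes had r 0.92 to 0.98 and rho 0.81 to 0.95, with adjusted permutation p of at most 1.45e-05 for r and 0.00032 for rho. These 16 relations were adjusted together, and 1e-05 before adjustment is the smallest p that 100000 permutations can give. Without the 2 libraries farthest from the median, r was 0.87 to 0.97 in RNA-Seq, 0.80 to 0.94 in Ribo-Seq and 0.84 to 0.98 between assays. With each value centred on its batch, r was 0.86 to 0.96, 0.65 to 0.96 and 0.92 to 0.97 in that order. The lowest of these, 0.65, was that of *MFALPHA2* with *STE3* in Ribo-Seq. Between the 11 pairs of cultures of the same batch, 2 genes differed in the same direction in 7 to 10 pairs in RNA-Seq and in 6 to 10 in Ribo-Seq, and the assays of a gene in 7 to 11. The cultures share batches and strains, and a library's total enters every value of it.

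Ranked by level over the 4 genes and both assays, *stm1Δ* replicate 4 and replicate 3 (both batch 7) came lowest, then *eif2aΔ* replicate 3 (batch 5), *eif2aΔ* replicate 2 (batch 4) and *wt* replicate 4 (batch 4). The highest were *eif2aΔ* replicate 4 and *stm1Δ* replicate 1 (both batch 6) and *tma46Δ* replicate 1 (batch 1). Within batch 7, which held 3 *stm1Δ* cultures and no other strain, the highest over the lowest culture was 9.11-fold for *MFALPHA2* in RNA-Seq and 5.87-fold in Ribo-Seq, and 2.24-fold and 6.84-fold for *SAG1*. In bulk cultures, fewer cells that express a gene and less of its RNA per cell cannot be told apart.

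Pairs of cultures of the same batch compare strains without a difference of batch. Each pair is 1 culture against 1, so its difference also holds the spread between cultures of a strain. Among the 3 *stm1Δ* cultures of batch 7, *MFALPHA2* spread 9.11-fold in RNA-Seq and 5.87-fold in Ribo-Seq. The 4 genes of a pair varied together, so the values counted here are not replicates. The share of all genes was not counted. For *tma46Δ* less *wt*, in batches 1, 2 and 3, the alpha-specific genes were higher in 5 of 12 values in RNA-Seq and 6 of 12 in Ribo-Seq, with log2 differences of -0.32 to 0.23 for RNA-Seq and -0.14 to 0.27 for Ribo-Seq. For *eif2aΔ* less *wt*, in batches 3 and 4, they were higher in 1 of 8 values in RNA-Seq and 2 of 8 in Ribo-Seq. There *MFALPHA2* differed by -0.35 (batch 3) and -1.12 (batch 4) in RNA-Seq and by -0.34 and -0.92 in Ribo-Seq. For *stm1Δ* less *eif2aΔ*, in the single pair of batch 6, *MFALPHA2* differed by -1.40 at the mRNA and -1.57 at the footprint level, with 38.5 CPM in *stm1Δ* and 102 CPM in *eif2aΔ* in RNA-Seq. The other 3 genes of that pair differed by -0.27 to 0.12 for RNA-Seq and -0.13 to -0.02 for Ribo-Seq.

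None of the mating-type specific genes passed the threshold against *wt* in any mutant, in either assay or in ribosome occupancy (RO, Ribo-Seq over RNA-Seq). The test was edgeR's quasi-likelihood test with batch and strain as terms and a false discovery rate (FDR) of 0.05 over all 4625 genes, of which the 4 alpha-specific genes were part and the 6 a-specific genes were not, since they lie under the filter. In *tma46Δ*, 0 of the 4 were called in RNA-Seq, where 0.0216% of all genes were called, 0 in Ribo-Seq, where 0.0216% were called, and 0 in RO, where 0% were called. In *eif2aΔ*, 0 of the 4 were called in RNA-Seq (0.454% of all genes), in Ribo-Seq (1.84%) and in RO (0.0432%). In *stm1Δ*, 0 of the 4 were called in RNA-Seq (0.0649%), in Ribo-Seq (0.411%) and in RO (0%). With such shares a count of 0 among 4 genes is near the background and is no result about these genes. DESeq2 called 0 of them too, of 4 with an adjusted p in 6 comparisons, of 3 in *eif2aΔ* Ribo-Seq and *stm1Δ* RNA-Seq, and of 1 in *stm1Δ* Ribo-Seq. At an unadjusted p under 0.05, edgeR counted 1 of the 4 in *eif2aΔ* Ribo-Seq, 1 in *stm1Δ* RNA-Seq and 1 in *stm1Δ* Ribo-Seq, each time *MFALPHA2*, and 0 in the other 6 comparisons. Of all genes, 14.7%, 21.8% and 15.6% had such a p in those 3 comparisons.

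In *tma46Δ* the fitted differences of the 4 genes were small. The log2 fold change of *MFALPHA1* was 0.07 (95% interval -0.33 to 0.48) for mRNA and 0.07 (-0.25 to 0.39) for footprints. That of *STE3* was -0.06 (-0.45 to 0.33) for mRNA and -0.04 (-0.33 to 0.25) for footprints. *SAG1* had 0.05 (-0.48 to 0.58) and 0.09 (-0.58 to 0.75), and *MFALPHA2* 0.17 (-0.74 to 1.08) and 0.19 (-0.40 to 0.78), in RNA-Seq and Ribo-Seq. The edgeR FDR was 0.999 for each gene by RNA-Seq and 1.00 by Ribo-Seq. The intervals leave out a log2 change of 1 in either direction for *MFALPHA1*, *STE3* and *SAG1*, and in RNA-Seq not for *MFALPHA2*.

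In *eif2aΔ* all 4 genes had fitted levels under those of *wt* in both assays, none of them past the threshold. In RNA-Seq *MFALPHA2* averaged 35.2 ± 45.3 CPM in *eif2aΔ* and 36.2 ± 15.5 CPM in *wt* (SD, n = 4 each), and with batch in the model its log2 fold change was -1.09 ± 0.54 (SE, edgeR FDR 0.405). In Ribo-Seq it averaged 34.5 ± 42.9 CPM in *eif2aΔ* and 33.5 ± 18.03 CPM in *wt*, with a log2 fold change of -0.93 ± 0.39 (edgeR FDR 0.282). The plain means of each assay lie close together, and they include *eif2aΔ* replicate 4 of batch 6, a batch with no *wt* culture. Without the batch term the log2 fold change was -0.02 in RNA-Seq and 0.14 in Ribo-Seq. It was -1.81 in RNA-Seq and -1.77 in Ribo-Seq without *eif2aΔ* replicate 1, and -0.72 and -0.54 without *eif2aΔ* replicate 3. *SAG1* had -0.39 ± 0.29 in RNA-Seq (edgeR FDR 0.588) and -0.73 ± 0.40 in Ribo-Seq (edgeR FDR 0.430), and leaving out 1 replicate moved these to between -0.59 and -0.18 and between -1.12 and -0.51. *MFALPHA1* and *STE3* had -0.31 and -0.33 for mRNA and -0.14 and -0.21 for footprints.

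In *stm1Δ* the fitted difference of *MFALPHA2* was large and its error too. Over the 4 cultures of each strain, its mRNA had a mean and SD of 15.4 ± 17.3 CPM in *stm1Δ* against 36.2 ± 15.5 CPM in *wt*, and its footprints 14.2 ± 13.6 CPM in *stm1Δ* against 33.5 ± 18.03 CPM in *wt*. The log2 fold change was -2.70 ± 0.92 in RNA-Seq (SE, edgeR FDR 0.124) and -2.62 ± 0.61 in Ribo-Seq (edgeR FDR 0.0767). With batch in the model, the strain difference of *stm1Δ* comes from replicate 1 against *eif2aΔ* replicate 4 in batch 6, added to the difference of *eif2aΔ* from *wt*, while the batch 7 cultures bear on its error only. Without *stm1Δ* replicate 2 the error was smaller and *MFALPHA2* passed in both assays (edgeR FDR 0.00966 for mRNA and 0.00215 for footprints), as did *MFALPHA1* in RNA-Seq (0.0158). In that fit 12.5% of all genes were called in RNA-Seq and 4.09% in Ribo-Seq. Without the batch term the log2 fold change was -1.34 for mRNA and -1.17 for footprints. With counts corrected by ComBat-seq before the test, 3 of the 4 genes passed in each assay, where 68.1% of all genes passed in RNA-Seq and 55.4% in Ribo-Seq. *MFALPHA1*, *STE3* and *SAG1* had -0.78, -0.52 and -0.47 for mRNA and -0.37, -0.33 and -0.90 for footprints in the fit with batch, with edgeR FDR of 0.282 or more.

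**Figure D3:**
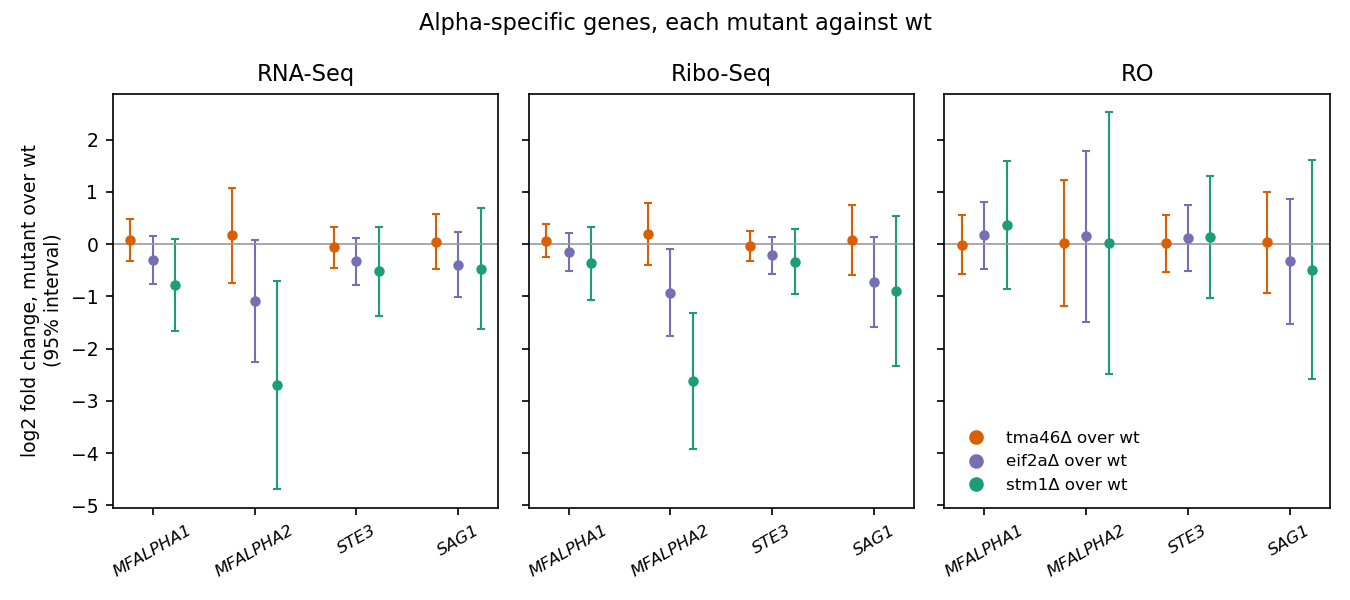
log2 fold change of each alpha-specific gene in *tma46Δ*, *eif2aΔ* and *stm1Δ* over *wt* (points) with its 95% interval (bars), from the edgeR fit with batch and strain, for RNA-Seq, Ribo-Seq and RO. The *tma46Δ* points lie within 0.19 of 0 and the *MFALPHA2* points of *stm1Δ* lie at -2.70 and -2.62; none passed an FDR of 0.05.

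RO of the alpha-specific genes was also compared. In *wt* the log2 ratio of Ribo-Seq to RNA-Seq CPM was -0.01 ± 0.05 for *MFALPHA1*, -0.17 ± 0.30 for *MFALPHA2*, -0.74 ± 0.14 for *STE3* and -0.01 ± 0.05 for *SAG1* (SD, n = 4). The median over 16 cultures placed *MFALPHA1* at the 78.1th percentile of all 4625 genes, *SAG1* at the 74.8th, *MFALPHA2* at the 73.9th and *STE3* at the 30.9th. The fitted RO differences from *wt* were -0.49 to 0.36 in log2, with edgeR FDR of at least 0.977.

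*SAG1* stood out in how its occupancy varied. Its log2 RO was 0.18, 0.23, -0.03 and -0.25 in *tma46Δ*, -0.15, -0.79, -0.57 and 0.42 in *eif2aΔ*, 0.22, -0.41, -1.59 and -2.02 in *stm1Δ* and -0.03, 0.05, -0.06 and -0.0034 in *wt*. The 4 *wt* values lay between -0.06 and 0.05, also of replicate 4, where the mRNA was at 54.6 CPM. In *eif2aΔ* replicates 2 and 3 and *stm1Δ* replicates 3 and 4, with 44.1 to 56.8 CPM of mRNA, the log2 RO was -0.57 to -2.02. The lowest rests on 16 Ribo-Seq counts. *MFALPHA2*, whose mRNA was far lower in the same 4 cultures, had a log2 RO of 0.13, -0.20, 0.17 and -0.07 in *eif2aΔ* and -0.25, -0.18, 0.46 and 1.15 in *stm1Δ*, with no low value there. Its values in *stm1Δ* replicates 3 and 4 rest on 10 RNA-Seq counts each and on 9 and 7 Ribo-Seq counts.

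**Figure D4:**
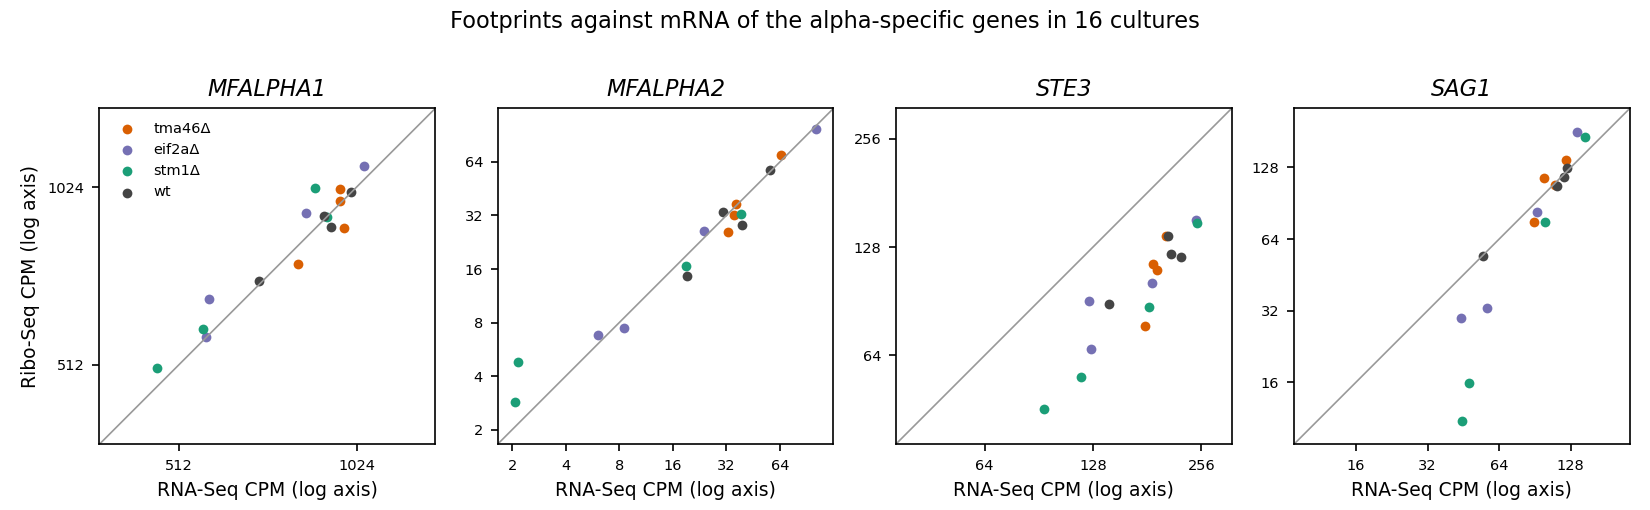
Ribo-Seq against RNA-Seq CPM (log axes) of each alpha-specific gene, 1 point per culture, with the line of equal CPM. *STE3* lies under the line in every culture. *SAG1* lies farthest under the line in *eif2aΔ* replicates 2 and 3 and *stm1Δ* replicates 3 and 4, down to 10.98 CPM in Ribo-Seq. Other cultures lie less far under the line for *SAG1*, such as *stm1Δ* replicate 2 (log2 RO -0.41). For *SAG1*, *wt* replicate 4, with 54.6 CPM of mRNA, lies on the line.

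Reads on the opposite strand, which the counts above leave out, were most numerous for *MFALPHA2*. Over the 16 RNA-Seq libraries *MFALPHA2* had 869 opposite-strand counts beside 2690 sense counts (24.4% of both). *SAG1* followed with 396 beside 7830 (4.81%), whereas *STE3* had 22 beside 14965 and *MFALPHA1* 104 beside 68706. Opposite-strand counts of *MFALPHA2* were 63, 66, 59 and 47 in *tma46Δ*, 41, 57, 76 and 52 in *eif2aΔ*, 57, 46, 59 and 42 in *stm1Δ* and 43, 49, 28 and 84 in *wt*. They stayed between 28 and 84 per library while sense counts went from 10 to 481, and they exceeded the sense counts in *eif2aΔ* replicates 2 and 3 and *stm1Δ* replicates 3 and 4. In Ribo-Seq the opposite strand had 4 counts beside 1557. No annotated RefSeq gene overlaps *MFALPHA2* or the other 9 genes. The counts were made on Ensembl's annotation, whose overlaps were not examined. *STE3* had fewer unstranded than sense counts in every library, 883 beside 962 in *wt* RNA-Seq replicate 1.

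The a-specific genes were low but mostly detected in RNA-Seq, *MFA2* having 0 counts in 2 of 16 libraries and *ASG7* in 5 of 16. *STE6* (YKL209C, chrXI:42423-46295, - strand), the transporter that exports a-factor, led with 19.5 CPM (median of 16 libraries, range 14.5 to 26.8). *STE2* (YFL026W, chrVI:82580-83875, + strand), the α-factor receptor, had 6.57 CPM (3.66 to 8.999), and *BAR1* (YIL015W, chrIX:322342-324105, + strand), the secreted protease that degrades α-factor, had 3.35 CPM (2.37 to 4.77). The a-factor genes *MFA1* (YDR461W, chrIV:1385176-1385286, + strand) and *MFA2* (YNL145W, chrXIV:352414-352530, + strand) had medians of 0.728 and 0.437 CPM, with at most 6 and 4 counts in a library. *ASG7* (YJL170C, chrX:101150-101779, - strand), which modulates pheromone signalling, had a median of 0.208 CPM and at most 4 counts. A count of 0 allows up to 3 counts, 0.447 CPM in the deepest and 0.712 CPM in the shallowest RNA-Seq library, so the levels of *MFA2* and *ASG7* were near that limit. Per kilobase, *STE6*, *STE2* and *MFA1* overlapped across libraries (medians 5.03, 5.07 and 6.56 CPM per kilobase).

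The genes removed from the strain show what an absent gene gives. In RNA-Seq the a-specific genes had 13.2 to 26.7 counts per kilobase in a library, against at most 0.165 counts per kilobase for *LEU2*, *URA3* and *LYS2*, which together had 0 or 1 counts in each library. In Ribo-Seq the a-specific genes had 0.385 to 2.44 counts per kilobase (median 1.60), against 0 to 0.658 (median 0.329) for the deleted genes. The a-specific genes were above the deleted genes in 16 of 16 libraries of each assay, in RNA-Seq by a wide gap, while the ranges overlapped in Ribo-Seq. *HMRA1*, the silent copy of the gene that encodes a1 in a cells, had 0 counts in all 32 libraries, and no 28-base window of it occurs elsewhere in the genome. *MATALPHA1* and *MATALPHA2* cannot be read here, since every window of them also occurs in the silent copies and the counts kept unique reads only.

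**Figure D5:**
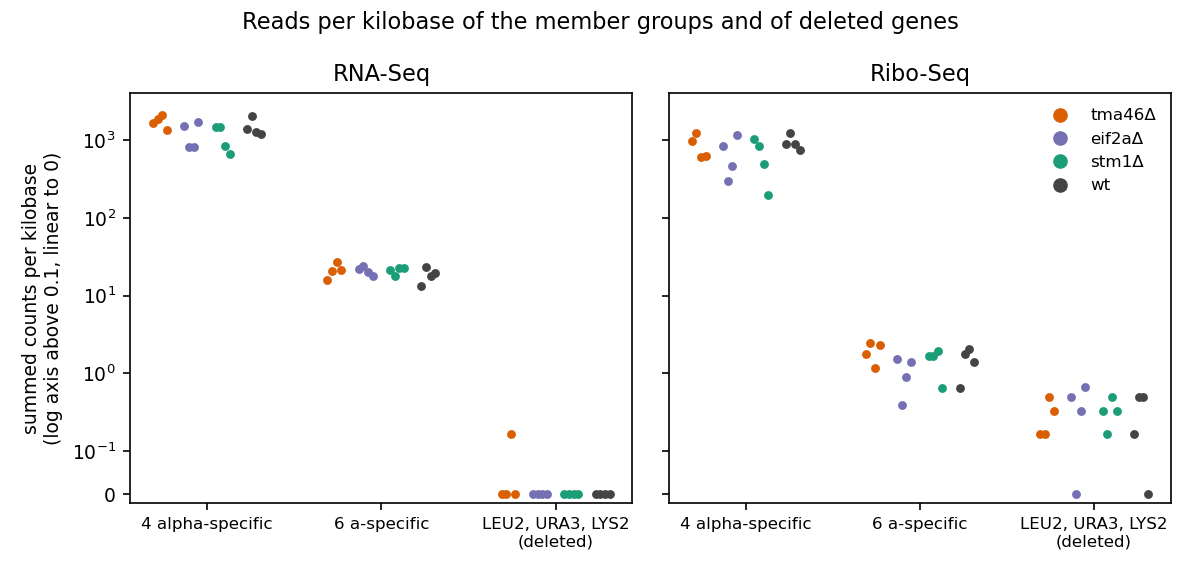
Summed counts per kilobase of the 4 alpha-specific genes, the 6 a-specific genes and the deleted *LEU2*, *URA3* and *LYS2*, 1 point per library, on an axis that is logarithmic above 0.1 and linear down to 0. In RNA-Seq the a-specific genes lie at 13.2 to 26.7 and the deleted genes at 0 to 0.165; in Ribo-Seq they lie at 0.385 to 2.44 and 0 to 0.658.

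The a-specific genes were also compared by their footprints per mRNA. From counts summed over 16 libraries, *STE6* had 66 footprint counts and 1608 mRNA counts, a ratio of CPM of 0.0703 (exact 95% interval 0.0541 to 0.0900). Of the 736 genes within 1.5-fold of its mRNA level, 8.83% had a lower ratio. *STE2* had 26 and 541 counts, a ratio of 0.0824 (0.0533 to 0.122), lower than in all but 28.1% of 228 genes of like mRNA level. *BAR1* had 76 and 293 counts and a ratio of 0.444 (0.341 to 0.574), with a lower ratio in 69.6% of 181 genes of like mRNA level, and for *MFA1* that share was 72.0% of 164 genes. *MFA1*, *MFA2* and *ASG7* had 12, 3 and 2 footprint counts in all. For comparison, the same ratio was 1.04 for *MFALPHA1*, 0.992 for *MFALPHA2*, 1.01 for *SAG1* and 0.591 for *STE3*, with a lower ratio in 50%, 87.1%, 83.6% and 29.1% of the genes of like mRNA level. The intervals cover counting error only. In Ribo-Seq the opposite strand had 52 counts beside 76 sense counts for *BAR1*, 35 beside 66 for *STE6* and 8 beside 26 for *STE2*. For the alpha-specific genes it held at most 0.256% of the counts of both strands. How much of the a-specific sense counts is background was not tested.

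Sense and opposite-strand reads of some a-specific genes were of like number. *BAR1* had 254 opposite-strand counts beside 293 sense counts in RNA-Seq, *ASG7* 42 beside 21 and *MFA2* 24 beside 35, whereas *STE6* had 152 beside 1608 and *MFA1* 2 beside 63. Without regard to strand the median a-specific sum in RNA-Seq was 39.6 CPM in place of 30.9.

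In a fit of RNA-Seq without the expression filter, over 6890 genes with a read, edgeR called 0 of the 6 a-specific genes in *tma46Δ* (0.0145% of all genes called), in *eif2aΔ* (0.813%) and in *stm1Δ* (1.32%). At an unadjusted p under 0.05 edgeR also counted 0 of the 6. Of all 6890 genes, 137, 821 and 1206 had such a p in the same order of strains. With such shares a count of 0 among 6 genes is near the background and is no result about these genes. The log2 fold change of *STE6* was -0.01 (95% interval -0.35 to 0.33) in *tma46Δ*, 0.15 (-0.24 to 0.53) in *eif2aΔ* and 0.10 (-0.64 to 0.84) in *stm1Δ*. For *STE2* it was 0.24 (-0.25 to 0.72), 0.37 (-0.17 to 0.91) and 0.30 (-0.75 to 1.35), and for *BAR1* 0.07 (-0.51 to 0.64), -0.21 (-0.88 to 0.45) and 0.28 (-1.06 to 1.61), in the same order of strains. Of the cultures with low alpha-specific levels, *eif2aΔ* replicate 2 and *stm1Δ* replicates 4 and 3 had the highest *STE6*. The low cultures *eif2aΔ* replicate 3 and *wt* replicate 4 lay among the others. *STE6* was at 21.9, 16, 24.7 and 25.03 CPM in *stm1Δ* and 19.8, 26.8, 20.2 and 19.5 CPM in *eif2aΔ*, beside 14.7, 14.5, 18.8 and 20.9 CPM in *tma46Δ* and 14.6, 18.9, 19.5 and 17.7 CPM in *wt*. The cause was not tested. *MFA1*, *MFA2* and *ASG7* were too sparse for a fold change.

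Genes whose level followed the alpha-specific genes were looked for across the whole table. The likeness was the Pearson r of log2 CPM with the mean of the 4 alpha-specific genes over the 16 RNA-Seq libraries, among the other 4621 genes past the filter, whose median r was -0.33. The most alike was *AFB1* (r = 0.97), an alpha-specific gene for a protein that binds a-factor and that was not among the 10 genes. It had 230.1, 217, 219 and 199 CPM in *tma46Δ*, 212, 155, 138 and 244 CPM in *eif2aΔ*, 219, 208, 146 and 119.5 CPM in *stm1Δ* and 227, 225, 203 and 181 CPM in *wt*. *AFB1* was also first in Ribo-Seq (r = 0.91), so that a further alpha-specific gene was low in the same cultures.

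The next in RNA-Seq were *PHM6* (r = 0.90 in RNA-Seq and 0.78 in Ribo-Seq), *TDH2*, a glyceraldehyde-3-phosphate dehydrogenase (0.87 and 0.88), *FAR1*, which arrests the cell cycle in response to pheromone (0.87 and 0.85), and *YGK1* (0.87 and 0.83). Among the listed genes of the pheromone pathway, *FUS1*, a pheromone-induced gene for cell fusion, was 11th in RNA-Seq (r = 0.84), *FUS3*, the kinase of the pathway, was 35th (0.78), and *SST2*, the regulator that turns G-protein signalling off, was 80th (0.73) and in Ribo-Seq 2nd (0.90). Over the 40 listed genes past the filter, r in RNA-Seq was -0.63 (*STE11*) to 0.97 (*AFB1*) with a median of -0.08, 18 of them above the upper quartile of all genes (0.0061) and 5 below the lower quartile (-0.54). In Ribo-Seq their median was 0.32, beside -0.08 over all genes. *FUS1* had 21.8, 16.6, 17.4 and 15.2 CPM in *tma46Δ*, 16.7, 9.44, 10.2 and 13.6 CPM in *eif2aΔ*, 22.7, 16.8, 10.4 and 5.83 CPM in *stm1Δ* and 16.8, 20.05, 23.96 and 13.9 CPM in *wt*, lowest in *stm1Δ* replicate 4. These likenesses share libraries and depth with the alpha-specific genes and are given without a test.

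Of 50 further listed genes that make, process, sense or transmit the pheromones or set the cell type, 40 passed the filter. Of these, edgeR called 0 in each of the 9 comparisons, higher or lower. Of all genes, 0% to 1.84% were called, so a count of 0 among 40 is near the background. The count at an unadjusted p under 0.05 was 0 in RNA-Seq and RO and 1 in Ribo-Seq for *tma46Δ*, 5, 1 and 2 in RNA-Seq, Ribo-Seq and RO for *eif2aΔ*, and 4 in each for *stm1Δ*. Over all genes the share at that p was 1.62%, 3.68% and 1.30% for *tma46Δ*, 13.7%, 14.7% and 3.31% for *eif2aΔ*, and 21.8%, 15.6% and 5.51% for *stm1Δ*, in RNA-Seq, Ribo-Seq and RO. The lowest FDR among them was 0.0535, in *stm1Δ* RNA-Seq. Their median log2 fold change was -0.15 in *stm1Δ* Ribo-Seq and -0.24 in *stm1Δ* RO, beside 0.012 and 0.014 over all genes. In the other 7 comparisons their median was between -0.03 and 0.03. *MET15*, a listed marker gene outside these 50 that is intact in this strain, was called lower in *eif2aΔ* Ribo-Seq. Its log2 fold change there was -0.55 (edgeR FDR 0.00875), where 1.84% of all genes were called, and it was called in no other comparison. Its likeness to the alpha-specific mean was r = 0.72 in RNA-Seq, 94th of 4621 genes.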

How the data were processed

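RNA-Seq and Ribo-Seq libraries were made in parallel from 16 cultures of 4 strains. The authors used cutadapt 2.10 for trimming, seqkit for deduplication of the Ribo-Seq reads, bowtie2 to discard rRNA, and STAR 2.7.9a to map and count on Ensembl's R64-1-1 annotation (versions from the submitters' processing notes). The deposited values are raw read counts, neither normalized nor batch-corrected, given per gene for sense, opposite and unstranded reads. Only uniquely mapped reads are in them, and the joint table holds the sense-strand counts in 32 of 32 libraries. Strain, replicate and batch came from the labels. By the labels cycloheximide was added to the medium before harvest, whereas the study's methods name it in the lysis buffer.

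The analysis ran edgeR 4.0.16 in R 4.3.3 (glmQLFit and glmQLFTest, TMM normalization, Benjamini-Hochberg adjustment). The filter of 10 CPM in at least 4 libraries of each assay kept 4625 of 7036 genes. The model had batch and strain as terms over all 4 strains of an assay, and RO was the strain by assay interaction over both. The study instead corrected counts with ComBat-seq before the test, which was an alternative here (sva 3.50.0). Other alternatives were RLE factors, no filter, DESeq2 1.42.0, no batch term, the replicate number as a block in place of batch, the culture as a block for RO, and leaving out each replicate of either strain in turn. The 3 comparisons of an assay share the *wt* libraries. CPM were counts over the library's total, and log2 CPM for the correlations used a pseudocount of 0.5 CPM.

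The genes and lists, and the tests, were chosen with earlier results of these data known. Named were the 10 genes, the listed genes past the threshold in a comparison, the genes that a result of the 10 turns on, and the 5 genes most alike to the alpha-specific mean. The lists held 64 genes in all, and each was matched to RefSeq. Protein sequences were not used here. Replicate libraries were compared before averaging, and chi-square over degrees of freedom was 2.46 to 26.4 for the 48 pairs, so none was counted as a duplicate. P-values of the strain comparisons measure the spread between cultures of 1 strain per genotype. The permutations for the correlations shuffled all 16 cultures without regard to strain or batch.

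Depth sets the precision. 3 counts, which a count of 0 allows, are 0.447 to 0.712 CPM for RNA-Seq and 0.728 to 2.06 CPM for Ribo-Seq. This limit covers counting error only. The tests were checked on simulated counts before use. Those counts had the same dispersion for every gene and no batch effect, so the check does not cover the batches and uneven spread of the data. Figures were drawn with matplotlib 3.10.9.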

Additional observations from a re-analysis of the deposited data

Results flagged for a closer look

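Among 61 groups of 4 libraries, 1 for each gene, assay and strain with enough counts, 5 had a library far from the other 3 by Dixon's ratio (the gap to the nearest library over the range of the group, set against its 95% critical value for 4 libraries). Chance gives about 1 in 20 such groups. *MFALPHA1* in *tma46Δ* RNA-Seq was at 816 CPM in replicate 4 (batch 5) and at 959 to 977 CPM in the other replicates (ratio 0.892). *MFALPHA2* in *tma46Δ* RNA-Seq was at 64.7 CPM in replicate 1 (batch 1) and at 32.8 to 36.0 CPM in the others (0.899). *SAG1* in *wt* RNA-Seq was at 54.6 CPM in replicate 4 (batch 4) and at 112 to 123 CPM in the others (0.835). *STE6* in *eif2aΔ* RNA-Seq was at 26.8 CPM in replicate 2 (batch 4) and at 19.5 to 20.2 CPM in the others (0.909). *STE6* in *tma46Δ* Ribo-Seq was at 2.82 CPM in replicate 4 (batch 5) and at 1.23 to 1.32 CPM in the others (0.939), where the highest value rests on 8 counts. Each of these libraries came from a batch that no other replicate of its strain shared, so replicate and batch cannot be told apart.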

How the results depend on the processing

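In *tma46Δ* the count of alpha-specific genes past the threshold was 0 under every alternative run. It was 1 in RNA-Seq (*MFALPHA2*) and 2 in Ribo-Seq (*MFALPHA2* and *SAG1*) for *eif2aΔ* with ComBat-seq counts, where 20.7% and 17.8% of all genes passed, and 3 in RNA-Seq and 3 in Ribo-Seq for *stm1Δ*, where 68.1% and 55.4% passed. Leaving out single replicates gave 0 to 2 such genes in *stm1Δ* RNA-Seq and 0 to 1 in *stm1Δ* Ribo-Seq, above 0 only without *stm1Δ* replicate 2, where 12.5% and 4.09% of all genes passed, and 0 in the other comparisons. RLE factors, no filter, DESeq2, no batch term, the replicate block and the culture block left the count at 0. The causes were not tested. No fit without *stm1Δ* replicate 1 could give a value, since batch 7 then coincides with the strain.

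Signs turned mostly in values near 0. With ComBat-seq counts the log2 fold change of *SAG1* in *tma46Δ* RNA-Seq was -0.00013. That of *MFALPHA2* in *tma46Δ* RO was -0.0013 with DESeq2, -9.8e-05 with the replicate block and -0.0027 with the culture block. That of *STE3* in *tma46Δ* RO was -0.069 without the batch term and -0.086 with the replicate block, and in *stm1Δ* RO -0.11 and -0.13. *MFALPHA2* in *stm1Δ* RO was at -0.032 with the culture block. Without the batch term *MFALPHA2* in *eif2aΔ* Ribo-Seq was at 0.14 and *SAG1* in *eif2aΔ* RO at 0.061. Leaving out single replicates gave a range across 0 for *STE3* (-0.12 to 0.0016) and *SAG1* (-0.068 to 0.21) in *tma46Δ* RNA-Seq, for *MFALPHA1* (-0.00094 to 0.14) and *SAG1* (-0.0016 to 0.21) in *tma46Δ* Ribo-Seq, for *MFALPHA1* (-0.042 to 0.046), *MFALPHA2* (-0.018 to 0.074), *STE3* (-0.026 to 0.046) and *SAG1* (-0.039 to 0.11) in *tma46Δ* RO, and for *MFALPHA2* in *stm1Δ* RO (-0.035 to 0.072).

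The number of all genes called moved more. For *eif2aΔ* it was 21, 85 and 2 (RNA-Seq, Ribo-Seq, RO), against 959, 821 and 62 with ComBat-seq, 51, 58 and 3 with DESeq2, and 56 in RNA-Seq without the filter. For *stm1Δ* it was 3, 19 and 0, against 3151, 2561 and 2137 with ComBat-seq, 447, 220 and 3 without the batch term, 215 and 35 with DESeq2, and 91 in RNA-Seq without the filter. For *tma46Δ* it was 1, 1 and 0, against 7, 14 and 1 with ComBat-seq, and 2 in Ribo-Seq with DESeq2. Leaving out single replicates gave 4 to 22 calls for mRNA and 7 to 128 for footprints in *eif2aΔ*, and 1 to 577 and 1 to 189 in *stm1Δ*. In *eif2aΔ* Ribo-Seq, calls numbered 7 without *eif2aΔ* replicate 2 or without *wt* replicate 4, the pair of batch 4.

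Same-numbered replicates deviated together only in part: the correlation of their deviations from the strain means was 0.07 to 0.67 for *tma46Δ* and *wt* in RNA-Seq, where 3 of the numbers also share a batch, -0.31 to -0.06 for *eif2aΔ* and -0.18 to 0.52 for *stm1Δ*. The replicate block in place of batch called 20, 42 and 3 genes for *eif2aΔ*, 251, 157 and 3 for *stm1Δ* and 1, 1 and 0 for *tma46Δ*, and 0 of the alpha-specific genes in each. TMM scaling of CPM raised the log2 RO of the 4 genes in *wt* alike, for *MFALPHA1* to 0.43, and leaves their percentiles as they are. Depth limited the a-specific genes in Ribo-Seq, where *MFA2* and *ASG7* had 3 and 2 counts over 16 libraries.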
